A study of Homo sapiens with 4 samples.

Results

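The 10 genes described here are the TCF/LEF transcription factors (TCF7, TCF7L1, TCF7L2 and LEF1) and 6 regulators of beta-catenin signaling, of which AXIN2, NKD1, RNF43, ZNRF3 and LGR5 are known as feedback targets and AXIN1 is the paralogue of AXIN2. They were taken by symbol from the 25559 gene symbols counted by RNA sequencing (RNA-seq) in HGC-27, a gastric cancer cell line. The comparison was between 2 libraries of control cells, labelled wildtype, and 2 libraries of RUNX3 knockout (KO) cells. RUNX3 is a transcription factor of the Runt domain family. The genes were chosen as a readout of the canonical WNT pathway, and whether their RNA follows pathway activity in these cells was not tested. The KO cells received Cas9 with 1 guide against RUNX3 from a lentiviral vector, were selected with puromycin and were cloned from single cells. Which clone or clones gave the KO libraries, and whether control cells carried an empty vector, is not given in the sources used here. Nothing states that the libraries of a group came from separate cultures, so p-values measure only the spread between these libraries.

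In the canonical pathway, a destruction complex built on AXIN, APC and the kinases GSK3 and CK1 marks beta-catenin for degradation. When WNT ligands engage frizzled and LRP receptors the complex is halted, and beta-catenin enters the nucleus and binds TCF/LEF proteins on DNA, which otherwise hold corepressors there. Several genes switched on in this way dampen or tune the pathway: AXIN2 is a scaffold of the destruction complex and the usual reporter of pathway activity, NKD1 binds Dishevelled, RNF43 and ZNRF3 remove frizzled receptors from the surface, and LGR5, a stem cell marker of stomach and intestine, binds R-spondins. AXIN1 encodes the scaffold that is present without WNT, and it is not a usual target.

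RNA of 8 of the 10 genes was abundant enough to test, and that of TCF7L1 and LGR5 was not. In RUNX3 KO cells 5 genes fell, NKD1, AXIN2, TCF7L2, ZNRF3 and LEF1, AXIN1 rose, and TCF7 and RNF43 did not pass an adjusted p of 0.05. These 6 of 8 called genes stand beside a background in which 48.9% of the 12967 tested genes were called, 24.4% lower and 24.5% higher. The calls of TCF7L2, LEF1, ZNRF3 and AXIN1 did not hold in every fit with a KO library left out. NKD1 was the only one of the 10 to fall by at least 2-fold (unadjusted p of at most 0.05), and relative to the median of its chromosomal neighbours its log2 fold change was -0.92, under 2-fold. On the same measure ZNRF3 stood at 0.16, above its neighbours. The 2-fold criterion was met by 4.01% of tested genes on the lower side and 2.11% on the higher side. Control and KO libraries did not overlap in 7 of the 8 tested genes, which was also so for 72.7% of all tested genes. The median log2 fold change of the 8 was -0.49, beside -0.0021 for all tested genes. NKD1, AXIN2 and TCF7L2 also stand in the study's lists of genes linked to active RUNX3 sites that hold a CDX2, LHX2 or TCF3 (TCF7L1) motif, which carry expression statistics beside each gene, so presence there is not taken as independent evidence of direction.

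Reads counted on genes numbered 11731401 to 11733407 in control and 11898276 to 12110876 in RUNX3 KO libraries, and libraries of a group differed little beyond counting noise (chi-square per degree of freedom 1.18 to 1.22, against 17.1 to 17.3 between groups). RUNX3 itself had 351 and 308 counts in control and 225 and 185 counts in KO libraries, and it fell with a log2 fold change of -0.70 ± 0.0961 (SE; edgeR adjusted p = 1.43e-09, quasi-likelihood F test, Benjamini-Hochberg method over all tested genes). Without KO replicate 2 this was -0.55 with an adjusted p of 0.0649, and a count of RNA does not show whether the coding sequence was edited. The study checked the cloned KO cells by RT-qPCR and immunoblot, which were not analysed here. All 7 markers of gastric mucosa were at or under 3 counts in every library and 6 of them were at 0, so the labelled tissue of origin is not visible in these markers. Epithelial markers summed to 2.80 to 2.96 CPM (counts scaled to a library of 1000000 counts) in control and 8.81 to 10.6 CPM in KO libraries, with KRT19 at 0 and EPCAM at 1 count or less, while KRT8 (log2 fold change 2.33) and CDH1 (0.77) rose. Mesenchymal markers, nearly all of it VIM, summed to 4879 to 4908 CPM and 2867 to 2938 CPM, and VIM (-0.75) and FN1 (-3.01) fell. Summed leukocyte markers stayed between 1.25 and 2.29 CPM and endothelial markers between 0.0847 and 0.339 CPM. The epithelial and mesenchymal sums differed between the genotypes, and their part in the results was not tested. In RNA of bulk cells, fewer cells of a type and less RNA per cell cannot be told apart.

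The 4 TCF/LEF genes encode related factors that bind the same DNA motif, and their promoters differ in sequence. The windows shown run from 250 bases before to 50 bases after an annotated start and are read 5′ to 3′ on the gene's strand, from RefSeq on GRCh38.p14. Capitals mark matches, on either strand, to a TCF/LEF core (CTTTGA or CTTTGT) or a RUNX core (TGTGGT or TGCGGT). Among 35116 windows of this kind, 26.2% held the first and 19.6% the second. They are shown because the test called TCF7L2 and LEF1 and not TCF7, while TCF7L1 could not be tested. Whether the letters bear on the calls was not tested. The first of 2 TCF7 windows (chr5:134115363-134115662, plus strand) holds 1 RUNX match on the other strand and lies at a start 7395 bp inside the gene. In the TCF7L1 window (chr2:85133142-85133441, plus strand) there is 1 RUNX match, also on the other strand. The first of 3 TCF7L2 windows (chr10:112949997-112950296, plus strand) holds neither. The LEF1 window (chr4:108166252-108166551, minus strand) holds 1 RUNX match on its own strand and lies at a start 2631 bp inside the gene.
TCF7: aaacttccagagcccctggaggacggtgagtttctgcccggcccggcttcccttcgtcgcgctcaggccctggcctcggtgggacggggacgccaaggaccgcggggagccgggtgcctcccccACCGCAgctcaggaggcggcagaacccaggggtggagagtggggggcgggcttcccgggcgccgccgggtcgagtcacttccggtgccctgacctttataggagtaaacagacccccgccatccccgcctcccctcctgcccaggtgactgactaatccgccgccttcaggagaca
TCF7L1: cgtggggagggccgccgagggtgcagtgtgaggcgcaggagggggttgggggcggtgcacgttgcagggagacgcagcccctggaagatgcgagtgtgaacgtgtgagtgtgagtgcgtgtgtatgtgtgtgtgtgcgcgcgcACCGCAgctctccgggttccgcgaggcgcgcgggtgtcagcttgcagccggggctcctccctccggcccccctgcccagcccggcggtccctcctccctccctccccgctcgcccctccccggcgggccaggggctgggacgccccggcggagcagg
TCF7L2: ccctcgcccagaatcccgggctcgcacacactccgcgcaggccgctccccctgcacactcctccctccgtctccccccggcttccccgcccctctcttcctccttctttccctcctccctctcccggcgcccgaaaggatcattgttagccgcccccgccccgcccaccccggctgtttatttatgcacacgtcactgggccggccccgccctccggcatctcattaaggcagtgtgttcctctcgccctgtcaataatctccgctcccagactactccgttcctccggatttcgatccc
LEF1: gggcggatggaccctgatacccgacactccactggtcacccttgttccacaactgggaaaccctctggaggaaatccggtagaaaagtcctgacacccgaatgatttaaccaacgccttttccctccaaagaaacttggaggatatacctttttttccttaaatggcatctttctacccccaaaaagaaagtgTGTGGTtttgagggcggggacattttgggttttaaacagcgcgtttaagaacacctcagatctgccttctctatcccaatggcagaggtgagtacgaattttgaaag

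In all, 10 windows were listed for 6 of the 10 genes, TCF7, TCF7L1, TCF7L2, LEF1, AXIN1 and RNF43, and not for AXIN2, ZNRF3, NKD1 and LGR5. Among the first windows of the 6, 4 held a RUNX match and 1, that of RNF43, held a TCF/LEF match. Over all 10 windows 5 held a RUNX match and 4 a TCF/LEF match, since the second TCF7 window holds 2 TCF/LEF matches and 1 RUNX match, and a further window of TCF7L2 and of RNF43 holds 1 TCF/LEF match each. The AXIN1 window held neither. A match is a description of letters only, and these windows were not compared with binding data.

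TCF7, whose product TCF1 is an activating partner of beta-catenin and which is itself a target of the pathway, had 894 and 950 counts in control and 895 and 869 counts in KO libraries. The groups overlapped, since KO replicate 1 lay just above control replicate 1. Levels were 78.1 ± 3.38 CPM in control and 74.1 ± 2.51 CPM in KO cells (SD, n = 2), a log2 fold change of -0.08 ± 0.0518 (SE) with an edgeR adjusted p of 0.219. The 95% interval of the difference ran from -11.7% to 1.80%. In the annotation 210 bp of TCF7 exon overlap SKP1 on the opposite strand, which had 2372 to 2540 counts per library. The strand setting of the counting was not stated, so reads of the shared part cannot be told apart.

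LEF1, another activating factor and a WNT target in many cell types, had 824 and 851 counts in control and 692 and 714 counts in KO libraries. Both KO libraries lay below both control libraries. The level went from 71.0 ± 1.64 CPM to 59.0 ± 0.538 CPM (SD, n = 2), and LEF1 fell with a log2 fold change of -0.27 ± 0.0552 (SE; edgeR adjusted p = 2.77e-05). The call was lost by a narrow margin without KO replicate 1 (adjusted p = 0.0503 in the same edgeR test).

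TCF7L2, the TCF4 protein that carries much of the WNT response in the gut, was far lower, with 144 and 140 counts in control and 100 and 92 counts in KO libraries. The groups stood apart. The level was 12.0 ± 0.236 CPM in control and 8.06 ± 0.580 CPM in KO cells (SD, n = 2), so TCF7L2 fell with a log2 fold change of -0.58 ± 0.136 (SE; edgeR adjusted p = 0.000203). Its interval, -0.85 to -0.31, does not reach 0, but the adjusted p was 0.0582 in edgeR without KO replicate 2 and 0.0554 in DESeq2. Noncoding genes on the opposite strand overlap exons of TCF7L2 (300 bp), LEF1 (279 bp), NKD1 (67 bp), LGR5 (208 bp) and RNF43 (345 bp). TCF7L1, known mainly as a repressor, had 0 counts in 3 libraries and 1 count in KO replicate 2. This is under the 3 counts taken as the limit of detection per library, equal to 0.250 to 0.254 CPM, and no fold is given.

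**Figure D1:**
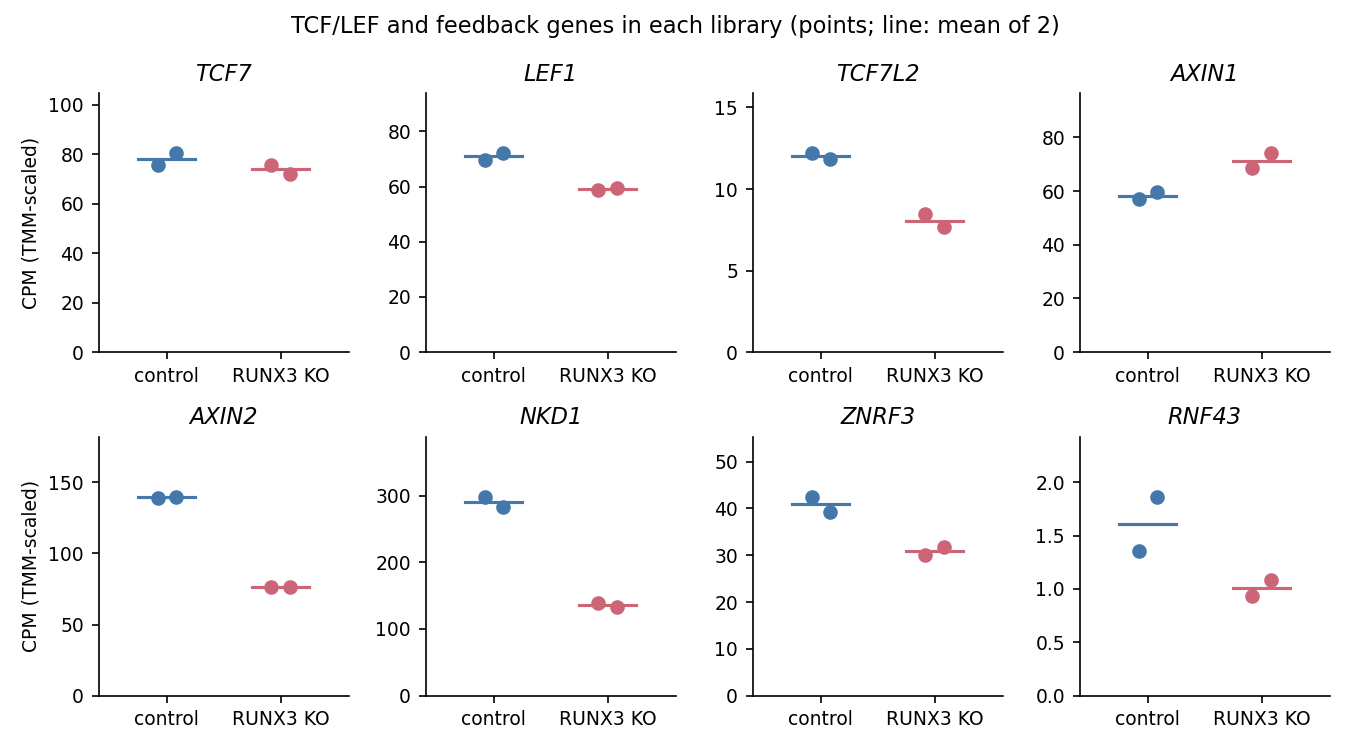
Level of each of the 8 tested genes (CPM, axis from 0) in the 2 control and the 2 RUNX3 KO libraries, 1 point a library, with a line at the mean. The points of NKD1 drop from 283 to 298 CPM in control to 133 to 139 CPM in KO libraries, while those of TCF7 overlap.

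AXIN2, the negative feedback scaffold, had 1642 and 1650 counts in control and 898 and 920 counts in KO libraries. The libraries of a group were nearly equal and the groups were far apart. Levels were 139 ± 0.520 CPM and 76.3 ± 0.313 CPM (SD, n = 2), and AXIN2 fell by 45.3%, a log2 fold change of -0.87 ± 0.0446 (SE; edgeR adjusted p = 2.05e-31). A fall of this size or larger was seen in 5.08% of all tested genes. AXIN2 kept its call under each alternative with a test, and its log2 fold change stayed between -0.87 and -0.86 when single libraries were left out. In the annotation AXIN2 shares 1316 bp of exon with another protein-coding gene on the same strand, for which no row was matched in the count tables, and how reads of shared exons were counted is not given in the sources used here.

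AXIN1, which shares its scaffold function, moved the other way. It had 673 and 704 counts in control and 810 and 891 counts in KO libraries, and both KO libraries were above both control libraries. The level went from 58.3 ± 1.87 CPM to 71.4 ± 3.88 CPM (SD, n = 2), so AXIN1 rose by 22.4%, a log2 fold change of 0.29 ± 0.0560 (SE; edgeR adjusted p = 6.57e-06). Of all tested genes 13.9% rose by at least as much, and without KO replicate 2 the adjusted p in edgeR was 0.0702. The ratio of AXIN2 to AXIN1, each as CPM per kilobase of its canonical transcript, was 2.12 and 2.04 in control and 0.965 and 0.899 in KO libraries. AXIN2 RNA was thus above AXIN1 RNA on this scale in control cells and slightly below it in KO cells. With the union of all annotated exons as the length, AXIN2 stayed above AXIN1 in both groups, at ratios of 3.47 ± 0.0985 and 1.55 ± 0.0780 (SD, n = 2).

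NKD1, the inhibitor that binds Dishevelled, showed the largest fall of the 8 tested genes. It had 3521 and 3338 counts in control and 1638 and 1596 counts in KO libraries, the highest count of the 10 genes in each library. Both KO libraries held well under the lower control library. From 291 ± 10.9 CPM it came to 136 ± 4.26 CPM (SD, n = 2), a 2.14-fold fall with a log2 fold change of -1.10 ± 0.0355 (SE; edgeR adjusted p = 6.19e-46). Of tested genes 3.33% fell as much or more, and the call stood under each alternative with a test, with a range of -1.14 to -1.06 when single libraries were left out. The 40 nearest tested genes on chromosome 16 had a median of -0.17, and relative to them NKD1 stood at -0.92, a value with no test.

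**Figure D2:**
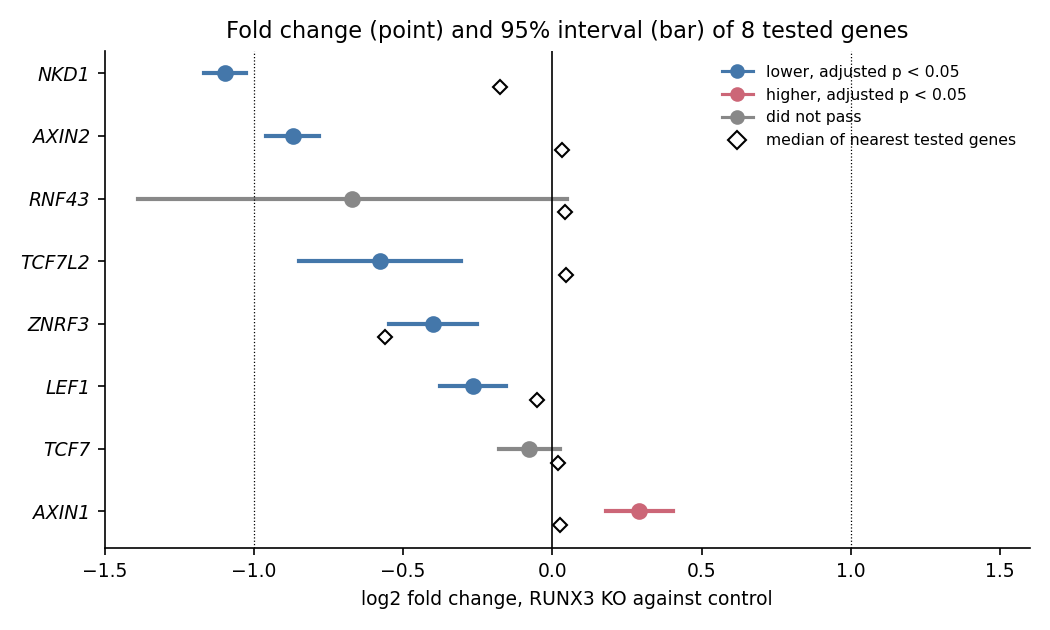
Log2 fold change of RUNX3 KO against control (point) with its 95% interval (bar) for the 8 tested genes, and the median of the nearest tested genes on the same chromosome (open diamond). NKD1 and AXIN2 lie far below their neighbours, whereas the diamond of ZNRF3, at -0.56, lies below its own point at -0.40.

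ZNRF3, 1 of the 2 ubiquitin ligases that clear frizzled receptors, had 502 and 464 counts in control and 356 and 383 counts in KO libraries. The groups did not overlap. The level went from 40.9 ± 2.26 CPM to 31.0 ± 1.20 CPM (SD, n = 2), and ZNRF3 fell with a log2 fold change of -0.40 ± 0.0745 (SE; edgeR adjusted p = 3.48e-06). Its surroundings on chromosome 22 were lower as well: 39 of the 40 nearest tested genes had a negative log2 fold change, with a median of -0.56. Relative to that median ZNRF3 stood at 0.16, that is, above its neighbours, and the part of the neighbourhood in its fall was not tested. With only 1 KO library the call was lost (adjusted p = 0.0612 without KO replicate 1 and 0.0508 without KO replicate 2, in edgeR).

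RNF43, the paralogue of ZNRF3, was scarce, with 16 and 22 counts in control and 11 and 13 counts in KO libraries. Its KO libraries were below its control libraries, but the counts are small. At 1.61 ± 0.360 CPM and 1.01 ± 0.106 CPM (SD, n = 2), the log2 fold change of -0.67 ± 0.362 (SE) had an edgeR adjusted p of 0.120. The 95% interval, from -61.8% to 3.38%, leaves a large fall and no fall undistinguished at this depth. In the annotation RNF43 also shares 4326 bp of exon with another gene on the same strand, again with no matched row. LGR5 had 1 count in control replicate 1 and 0 counts in the other 3 libraries, and no fold is given.

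Levels of different genes can be set side by side only per length. Per kilobase of canonical transcript, AXIN2 led in control cells with 32.7 ± 0.122 CPM per kb, followed by TCF7 (23.8 ± 1.03), LEF1 (19.8 ± 0.458), NKD1 (17.1 ± 0.638), AXIN1 (15.7 ± 0.506), ZNRF3 (5.95 ± 0.330), TCF7L2 (2.95 ± 0.0579) and RNF43 (0.356 ± 0.0796; SD, n = 2). In KO cells TCF7 came first with 22.5 ± 0.763 CPM per kb, then AXIN1 (19.3 ± 1.05), AXIN2 (17.9 ± 0.0734), LEF1 (16.5 ± 0.150), NKD1 (7.97 ± 0.250), ZNRF3 (4.51 ± 0.174), TCF7L2 (1.98 ± 0.142) and RNF43 (0.223 ± 0.0234). AXIN2 thus went from the first place to the third and AXIN1 from the fifth to the second. No neighbours in either order overlapped in their libraries, but each group had 2 libraries and the order was not tested. For control against KO, an exact permutation test of 2 against 2 libraries cannot go below p = 0.333. The order depends on the length chosen: over the union of exons AXIN2 was first in both groups, at 26.8 and 14.7 CPM per kb, and TCF7 lay below LEF1 in both.

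**Figure D3:**
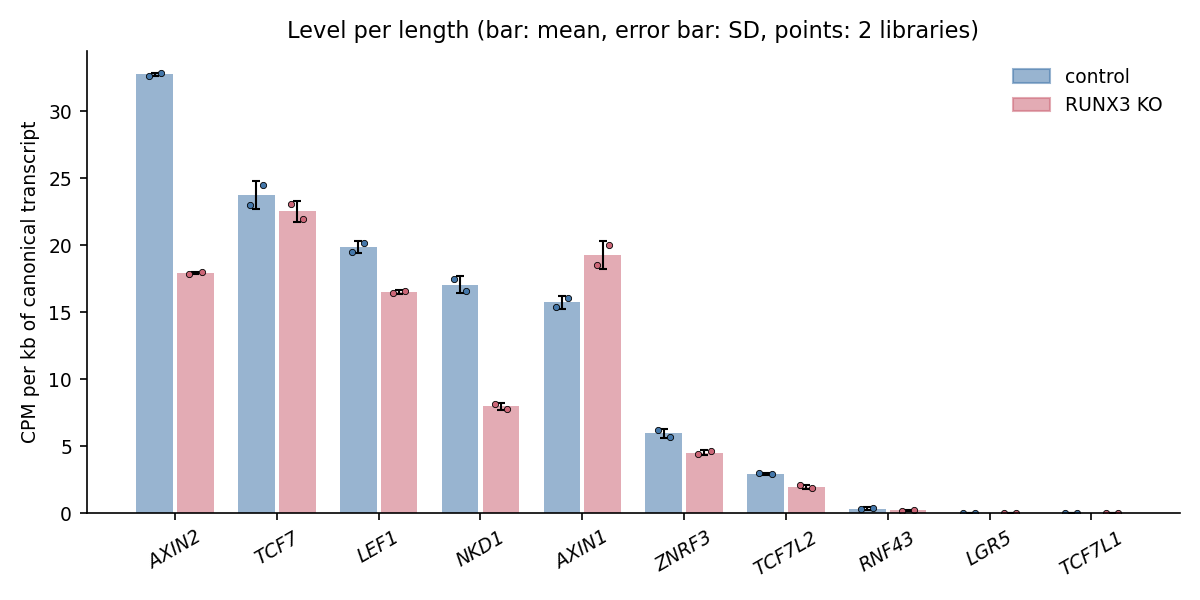
Level per kilobase of canonical transcript (CPM per kb) of the 10 genes, as the mean (bar) and SD (error bar) of the 2 libraries (points) of control and RUNX3 KO cells. AXIN2 leads in control cells at 32.7 CPM per kb, and TCF7, AXIN1 and AXIN2 lie close together in KO cells, between 17.9 and 22.5.

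Among the TCF/LEF factors, the summed level per kilobase of canonical transcript went from 46.6 ± 1.43 to 41.0 ± 0.735 CPM per kb (SD, n = 2). TCF7 made up 51.0% ± 0.642 of it in control and 54.9% ± 0.876 in KO cells, LEF1 42.6% ± 0.323 and 40.2% ± 1.09, and TCF7L2 6.34% ± 0.319 and 4.82% ± 0.260. The share of TCF7 was higher, and those of LEF1 and TCF7L2 lower, in both KO libraries than in both control libraries. Over the union of exons LEF1 had the largest share instead, 58.2% and 56.3%, and the shares moved in the same directions.

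The plot of fold change against mean level sets the 8 genes beside all tested genes. Calls depended on the count of reads: 33.1% of genes with a mean of 10 to under 100 counts were called, 48.5% of those with 100 to under 1000 counts and 66.4% of those with at least 1000 counts. RNF43 belongs to the first of these classes, AXIN2 and NKD1 to the last and the other 5 tested genes to the middle one.

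**Figure D4:**
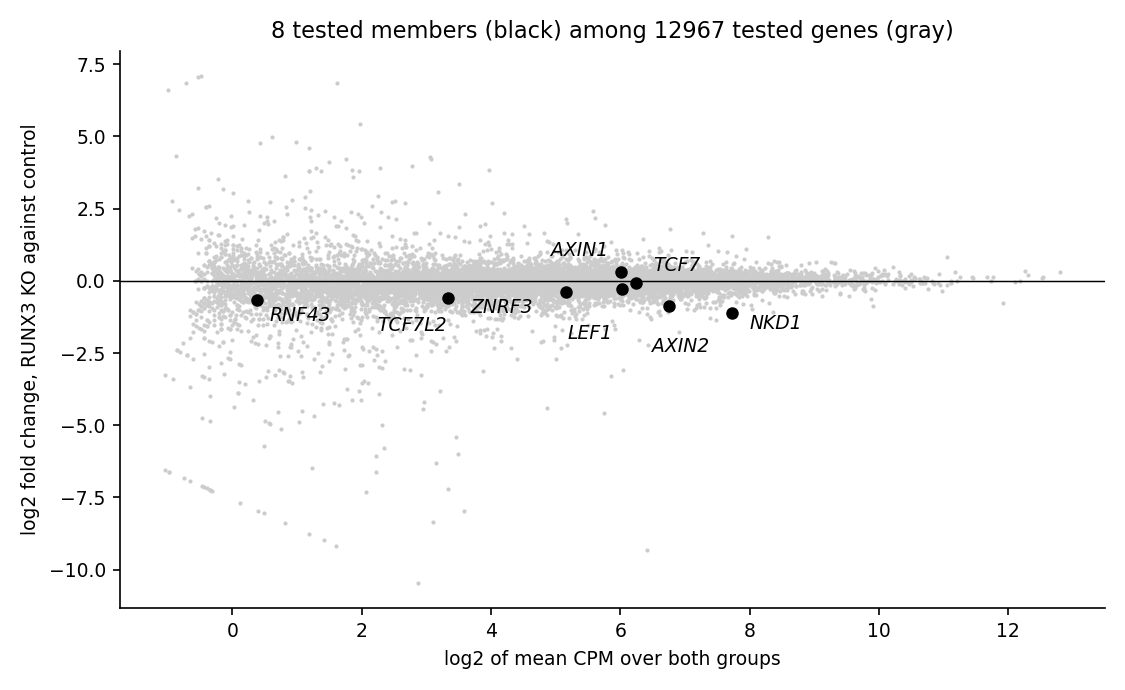
Log2 fold change of RUNX3 KO against control, plotted over the log2 mean CPM, for the 12967 tested genes (gray) and the 8 tested WNT genes (black). NKD1 (-1.10) and AXIN2 (-0.87) lie below the bulk of the gray points at their level, and TCF7, LEF1 and AXIN1 lie within the gray band.

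The pattern most like that of AXIN2 was sought over the 4 libraries, as the Euclidean distance of log2 CPM centred on each gene's mean. The nearest 5 of the other tested genes were RBFOX2 (distance 0.0371, log2 fold change -0.89), CBFA2T2 (0.0371, -0.87), COL16A1 (0.0422, -0.85), BCL11B (0.0441, -0.87) and CYB5R3 (0.0462, -0.83). With 4 libraries in 2 groups this measure mostly finds genes that fell by a like amount, and none of the other tested WNT genes is among the 5. RBFOX2 and CYB5R3 lie on chromosome 22 among neighbours whose medians were -0.48 and -0.52.

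The rest of the pathway was described by lists of its genes. Of 20 genes of the destruction and receptor complexes, all tested, 3 fell, 9 rose and 8 did not pass, with a median log2 fold change of 0.10. Here and for the lists that follow, the background is the 24.4% lower and 24.5% higher of all tested genes. CTNNB1, the gene of beta-catenin, had 2280 and 2208 counts in control and 2270 and 2282 counts in KO libraries, a log2 fold change of 0.01 ± 0.0351 (SE; edgeR adjusted p = 0.887) with an interval from -4.25% to 5.48%. The largest falls with a mean of at least 50 counts were those of CSNK1E, a kinase that acts on Dishevelled (log2 fold change -0.40), APC2 (-0.26) and TNKS, a tankyrase that turns over axin (-0.14). DVL1 (0.30), FRAT2, a GSK3 binding protein (0.28), and AMER1, a partner of APC (0.27), were the largest rises. CSNK1E lies on chromosome 22, where its neighbours had a median of -0.49. More of the called genes of this list were higher than lower in KO cells. Fewer of them were called with a KO library left out, as over all tested genes, so the background above does not apply to those fits.

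Among 16 nuclear partners of beta-catenin and TCF/LEF, 5 fell, 4 rose and 7 did not pass (median log2 fold change -0.02), close to the background of 24.4% lower and 24.5% higher. TLE2, a corepressor of the Groucho family, fell with a log2 fold change of -0.65 ± 0.0866, EP300, a histone acetyltransferase, with -0.57 ± 0.0388, and TLE3 with -0.28 ± 0.0931 (SE). EP300 is also on chromosome 22, and its neighbours had a median of -0.51. TLE5, a short Groucho protein listed under its older symbol AES, rose with a log2 fold change of 0.33 ± 0.0329, the corepressor CTBP2 with 0.26 ± 0.0624 and CDC73 with 0.15 ± 0.0650 (SE). The corepressors thus went in both directions. With a KO library left out fewer genes of this list were called too, and the background above is not that of those fits.

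R-spondins and the paralogues of NKD1 and LGR5 were mostly at very low counts, and 3 of 7 could be tested. LGR4, an R-spondin receptor related to LGR5, had 933 and 955 counts in control and 544 and 540 counts in KO libraries. The groups were far apart, and LGR4 fell with a log2 fold change of -0.81 ± 0.0571 (SE; edgeR adjusted p = 8.22e-23). LGR6 and RSPO1 to RSPO3 had no more than 3 counts in any library. RSPO4, at 3 and 2 counts in control and 13 in each KO library, passed the test in the higher direction at very low counts, and not without KO replicate 2. NKD2 had a log2 fold change of -0.12 ± 0.0596 (SE; edgeR adjusted p = 0.0924), so the fall of NKD1 was not accompanied by a called fall of its paralogue. Whether the fold changes of NKD1 and NKD2 differ was not tested.

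Of 28 other genes known as beta-catenin targets in various tissues, 19 were tested, of which 11 fell, 3 rose and 5 did not pass, beside 24.4% lower and 24.5% higher of all tested genes, with a median log2 fold change of -0.18. The largest falls were those of CD44, an adhesion receptor (log2 fold change -3.30 ± 0.0751), APCDD1, a membrane inhibitor of WNT (-2.05 ± 0.0572), and EPHB2, an ephrin receptor of the crypt (-1.67 ± 0.118; SE). The paper proposes that RUNX3 also controls CD44 directly, from RUNX3 binding and chromatin loops at the gene. APCDD1 counts were 1538 and 1453 in control and 378 and 349 in KO libraries, so this inhibitor fell further than NKD1 and AXIN2. TNFRSF19 (1.51 ± 0.139), BMP4 (0.61 ± 0.0561) and JUN (0.29 ± 0.101) rose. The neighbours of BMP4 on chromosome 14 went the other way, 38 of 40 being lower. KREMEN1, one of the falls, lies on chromosome 22, where 39 of its 40 neighbours were lower, with a median of -0.55. Neither MYC nor CCND1 passed the test: MYC had a log2 fold change of -0.01 ± 0.0295 (edgeR adjusted p = 0.852) and CCND1 one of 0.01 ± 0.0319 (SE; edgeR adjusted p = 0.819). Their intervals were -4.51% to 3.59% and -3.61% to 5.23%. BIRC5, an apoptosis inhibitor of dividing cells, fell slightly, with a log2 fold change of -0.09 ± 0.0357 (SE; edgeR adjusted p = 0.0299). MYC, CCND1, BIRC5 and KREMEN1 were chosen after their values were seen, and ASCL2, DKK4, CDX1, MMP7, CCN4 and CLDN1 were at 0 counts in each library. Of 19 WNT ligands, 9 were tested, and 4 fell and 3 rose. With at least 10 counts in every library these became 1 fall and 1 rise, and DESeq2 gave 1 rise. Of 10 frizzled receptors, 8 were tested, and 2 fell and 1 rose, the rise being lost without KO replicate 2. The frizzled counts are near the background of 24.4% lower and 24.5% higher.

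**Figure D5:**
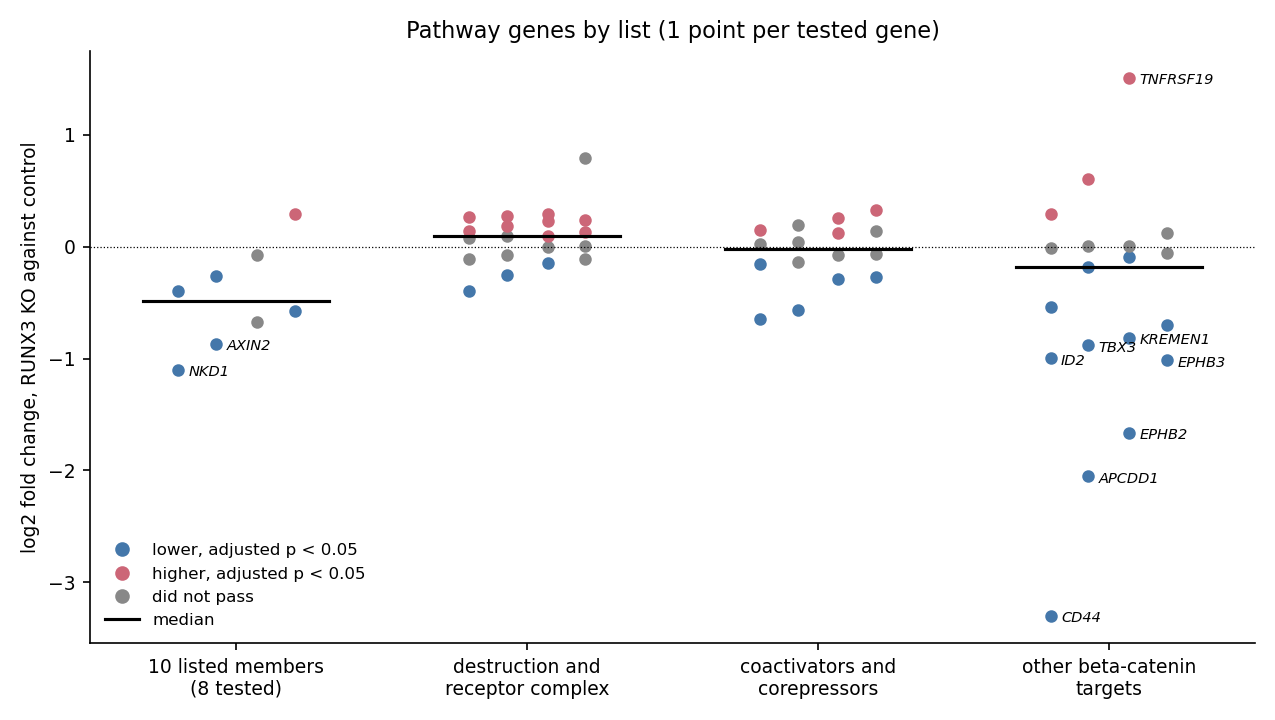
Log2 fold change of RUNX3 KO against control for each tested gene of the WNT gene set described here and of 3 pathway lists, 1 point a gene, colored by its call, with the median of each list as a line. The lists spread over both sides of 0, and the other beta-catenin targets reach from -3.30 to 1.51.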

How the data were processed

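Total polyadenylated RNA of HGC-27 cells was sequenced. The deposited tables, 1 a library, pair gene symbols with whole read counts on hg19 that the authors left unscaled. The paper names STAR and FeatureCounts, whereas the submitters' processing notes name HISAT2 2.1.0 and HTSeq, and the tables close with 5 rows in htseq-count form. The sources also differ on medium, RNA extraction kit and library preparation. The strand setting is not given in the sources used here. The 5 rows without a gene took 25.9% to 28.1% of counts and were left out.

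Counts were fitted in R 4.3.3 with edgeR 4.0.16 (filterByExpr at its defaults, 10 counts and a total of 15, TMM scaling, glmQLFit and glmQLFTest, two-sided), which left 12967 genes. P-values were Benjamini-Hochberg adjusted over all of them, with a threshold of 0.05. The biological coefficient of variation was 1.45%. As SE served the size of the log2 fold change over the square root of F, and the 95% intervals used the t distribution. CPM was scaled to TMM library size. Errors of levels cover the spread of 2 libraries. Positions and lengths came from GENCODE on GRCh37, which gave 94.0% of tested genes a position, and the neighbourhood was the 20 nearest tested genes on each side, or those present where a chromosome end was closer (30 genes in all for AXIN1). Promoter windows came from RefSeq.

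The members, gene lists and tests were chosen with earlier results of these data known. Named were all 10 genes, RUNX3, the 3 largest falls and 3 largest rises of each pathway list among called genes with a mean of at least 50 counts (WNT ligands and frizzled receptors by counts only), and the 5 genes nearest AXIN2. NKD2, RSPO4 and other genes named beside them were chosen after their values were seen. The fit was tested on simulated counts. Alternatives were other scalings, filters, DESeq2 1.42.0, edgeR's exact test, limma-voom 3.58.1, a replicate block, subtraction of the neighbourhood median and each library left out in turn.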

Additional observations from a re-analysis of the deposited data

How the results depend on the processing

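With KO replicate 1 or 2 left out the lone KO library is assumed to vary like the controls, and calls became fewer: between 3 and 5 of the WNT genes were called lower and between 0 and 1 higher across the 4 libraries left out in turn. Over all genes these ranges were 1378 to 2806 lower and 1285 to 2745 higher. DESeq2's Wald test called 1747 genes lower and 1749 higher. For the pathway lists, the ranges with single libraries left out were 1 to 3 falls and 2 to 7 rises in the destruction and receptor complexes, 3 to 6 and 1 to 4 among nuclear partners, 1 fall and 0 to 1 rises among R-spondins and paralogues, 2 falls and 0 to 1 rises among frizzled receptors and 8 to 9 falls and 2 to 3 rises among other beta-catenin targets. DESeq2 called 1 fall and 4 rises in the complexes, 8 falls and 2 rises among other beta-catenin targets, 1 rise among nuclear partners, 0 among R-spondins and paralogues, 1 among WNT ligands and 0 among frizzled receptors. Without a filter on low counts the complexes had 1 fall and the frizzled receptors 0 rises. With at least 10 counts in every library, R-spondins and paralogues had 0 rises and WNT ligands 1 fall and 1 rise. Library size alone and upper-quartile scaling each gave 2 falls among R-spondins and paralogues, LGR4 and NKD2. RUNX3 ranged from -0.86 to -0.55 with single libraries left out, the last of these without KO replicate 2. The median log2 fold change of the WNT genes was -0.42 with the neighbourhood median subtracted, between -0.47 and -0.44 with single libraries left out and between -0.51 and -0.49 otherwise. With its neighbourhood subtracted, which gives values and no test, ZNRF3 turned to 0.16 and NKD1 went to -0.92, under 2-fold. The cause was not tested for any of these.

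Replicate numbers share only a number: deviations of same-numbered libraries had a correlation of 0.0257. With the replicate block 5 of the WNT genes were lower and 1 higher, their median was -0.49, and 3143 genes were lower and 3143 higher over all, so no call among the WNT genes changed. Other scalings left the median log2 fold change of all genes between -0.0228 and -0.0017. Under the alternatives with a test, NKD1 and AXIN2 were called in each and TCF7 and RNF43 in none. At this depth, genes with few counts such as RNF43 are imprecise, and TCF7L1 and LGR5 cannot be compared.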
